A study of Mus musculus with 6 samples.

Results

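The numbered Zfp genes of the mouse encode zinc finger proteins, and 173 of them were described here as a group in granulocytes kept under a block of transcription with or without caffeine. The members were chosen by a measured value: a gene with a symbol made of Zfp and a number entered if the mean log2 value of its brightest probe set over all 6 arrays was 7.0 or more, with Zfp36 and Zfp389 left out. The array had 317 such genes with a probe set of their own among 19937 genes, and 142 lay below the level. Because the mean over all arrays chose the members, their level is a description, while the difference between the groups was not used in the choice. A further 24 numbered Zfp genes were represented only by probe sets shared with other genes and were not analysed here.

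The study profiled primary granulocytes of C57BL/6J mice on Affymetrix Mouse Gene 1.0 ST arrays as part of work on intron retention in these cells, where caffeine is known as an inhibitor of nonsense-mediated decay, the pathway that destroys mRNAs with premature stop codons. Both groups are described in the treatment protocol as first receiving 15 mM caffeine for 4 hours and a wash. The 3 caffeine-plus samples then had actinomycin D, which blocks transcription, at 2 µg/ml for 4 hours together with caffeine, and the 3 caffeine-minus samples had actinomycin D alone, although the sample labels call the second group untreated with caffeine. The sources used here do not give the purification of the granulocytes, the age of the mice or the animals behind each replicate, so p-values reflect only array-to-array spread, which may be technical. Each difference is the caffeine-plus mean less the caffeine-minus mean, in log2 units (n = 3 arrays in each group). The ± values are limma's moderated standard errors, in which the spread of a gene is drawn toward that of genes of similar level. Tests used limma, with Benjamini-Hochberg adjusted p-values over all 19937 genes and a threshold of 0.05. Values of different probe sets are not comparable as levels, and all values are relative, so a change in total mRNA would not show.

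Most Zfp proteins carry C2H2 fingers, small folds in which cysteines and histidines hold a zinc ion and which bind DNA or RNA. Many also carry a KRAB box, which recruits the corepressor Trim28 and, through it, the methyltransferase Setdb1 to silence retroelements and imprinted regions. KRAB zinc finger genes arose by tandem duplication and often sit in runs of near neighbours, and transcripts of zinc finger factors are known as a short-lived class of mRNA. Not every gene named Zfp fits this picture, since the name also covers RNA-binding proteins, a ubiquitin ligase and ribosome factors.

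Promoter stretches are shown first for 2 runs of neighbouring members, picked after their values were seen as examples of neighbours with the same and with opposite signs. They are the 250 bases before the annotated start from RefSeq on build GRCm38.p6, all on the minus strand and written 5′ to 3′ on the strand of the gene. The first set belongs to 5 neighbours whose probe sets were all lower in the caffeine-plus cells: Zfp458 (chr13:67268995-67269244), Zfp457 (chr13:67306413-67306662), Zfp595 (chr13:67332561-67332810), Zfp953 (chr13:67360573-67360822) and Zfp456 (chr13:67375764-67376013). Capitals mark words of at least 8 bases found in at least 3 of the 5.
Zfp458: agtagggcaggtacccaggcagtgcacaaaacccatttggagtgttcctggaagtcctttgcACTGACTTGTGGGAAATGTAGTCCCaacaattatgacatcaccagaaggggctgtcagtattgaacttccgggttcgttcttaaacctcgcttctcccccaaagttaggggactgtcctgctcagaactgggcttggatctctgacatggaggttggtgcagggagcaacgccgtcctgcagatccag
Zfp457: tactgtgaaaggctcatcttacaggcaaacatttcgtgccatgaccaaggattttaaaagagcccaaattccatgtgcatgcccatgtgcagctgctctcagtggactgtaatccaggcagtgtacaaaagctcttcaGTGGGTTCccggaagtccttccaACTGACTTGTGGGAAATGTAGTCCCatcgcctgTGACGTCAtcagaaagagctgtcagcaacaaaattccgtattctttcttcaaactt
Zfp595: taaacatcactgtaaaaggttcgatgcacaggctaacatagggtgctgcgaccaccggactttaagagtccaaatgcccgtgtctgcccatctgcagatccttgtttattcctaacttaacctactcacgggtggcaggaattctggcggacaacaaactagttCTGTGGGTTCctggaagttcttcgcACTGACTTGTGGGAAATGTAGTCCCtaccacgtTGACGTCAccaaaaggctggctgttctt
Zfp953: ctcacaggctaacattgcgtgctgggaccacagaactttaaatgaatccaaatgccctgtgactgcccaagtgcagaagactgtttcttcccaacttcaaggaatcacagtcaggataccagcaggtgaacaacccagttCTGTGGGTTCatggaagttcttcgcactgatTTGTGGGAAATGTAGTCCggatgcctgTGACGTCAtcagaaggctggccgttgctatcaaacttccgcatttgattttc
Zfp456: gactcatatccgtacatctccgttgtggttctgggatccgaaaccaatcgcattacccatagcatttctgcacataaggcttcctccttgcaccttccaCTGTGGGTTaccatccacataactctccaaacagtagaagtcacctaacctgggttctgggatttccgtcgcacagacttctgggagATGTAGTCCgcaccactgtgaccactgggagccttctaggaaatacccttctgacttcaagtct

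The longest word present in at least 4 of these 5 promoters had 18 bases, TTGTGGGAAATGTAGTCC, and was in all but that of Zfp456. In all 32851 RefSeq promoter windows of the mouse, which run from 250 bases before to 50 after each start, it occurred in 8, of which 4 belong to these members and the others to Zfp2, Zfp759, Mon1a and Gm17039. Both of these Zfp genes lay below the level, and Zfp759 fell by 1.32 on the log2 scale while Zfp2 gave 0.04 ± 0.11 and did not pass. Read on the other strand, GGACTACATTTCCCACAA, it holds the letters ACTACANTT, the core of the element bound by the factor Zfp143. The promoters of Zfp457, Zfp595 and Zfp953 also hold TGACGTCA, the full cAMP response element. Pairwise identity over the 250 bases was 65.5% for Zfp595 and Zfp953, 64.3% for Zfp457 and Zfp953 and 61.1% for Zfp457 and Zfp595, and the other 7 pairs lay between 49.8% (Zfp458 and Zfp595) and 58.5%. Members with a promoter window were compared by the first window of each. Over the 90 such pairs in the same run the median was 50.2%, and 8 pairs were above 60%, the highest at 85.2%. Over the 10063 such pairs from different runs the median was 49.3%, and 8 pairs were above 60%, the highest at 69.5%.

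The second set belongs to Zfp942 (chr17:21962465-21962714) and Zfp944 (chr17:22361401-22361650), neighbours whose probe sets went opposite ways. Capitals mark words of at least 8 bases present in both.
Zfp942: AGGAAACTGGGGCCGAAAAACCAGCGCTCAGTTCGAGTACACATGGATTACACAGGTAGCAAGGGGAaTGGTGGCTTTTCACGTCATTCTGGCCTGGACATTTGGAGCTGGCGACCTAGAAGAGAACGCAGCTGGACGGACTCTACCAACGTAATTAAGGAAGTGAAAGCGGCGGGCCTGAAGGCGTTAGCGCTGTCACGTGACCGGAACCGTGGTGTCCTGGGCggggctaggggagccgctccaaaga
Zfp944: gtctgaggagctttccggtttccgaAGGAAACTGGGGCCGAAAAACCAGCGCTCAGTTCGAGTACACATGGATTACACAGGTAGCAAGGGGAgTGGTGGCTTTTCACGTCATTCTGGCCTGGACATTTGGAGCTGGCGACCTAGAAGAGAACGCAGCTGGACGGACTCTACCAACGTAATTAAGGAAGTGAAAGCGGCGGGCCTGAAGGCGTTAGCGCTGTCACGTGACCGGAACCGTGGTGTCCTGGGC

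In each of these promoters 224 of 250 bases lie in shared words, with the shared stretch placed further from the start in Zfp942, and the aligned identity was 81.5%. Zfp943 lies head to head with Zfp942, and their windows of 300 bases share 194 bases, chr17:21962415-21962608.

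Pearson correlations over the 34760 probe sets were 0.986 to 0.992 within groups and 0.959 to 0.965 between them, and no array stood apart. All 16 granulocyte markers of the list were measured, with mean log2 values between 7.42 and 12.8. Of these 15 fell in the caffeine-plus cells, with a median difference of -0.59. Over all genes 21.7% fell and 16.2% rose, and over genes with a mean of 7 or more 34.2% fell and 32.8% rose. The list's mean was 9.73 to 9.79 in the caffeine-plus and 10.3 to 10.4 in the caffeine-minus arrays. Of the other lists, 2 of 6 T and NK cell markers, 3 of 6 monocyte and macrophage markers, 3 of 6 basophil, eosinophil and mast cell markers, 1 of 5 measured B cell markers and 1 of 3 measured erythroid markers fell, and 1 monocyte marker rose. Their list means were 6.4 to 6.5 against 6.53 to 6.74, 7.30 to 7.40 against 7.63 to 7.85, 8.17 to 8.24 against 8.69 to 8.92, 5.64 to 5.83 against 5.99 to 6.08 and 6.26 to 6.34 against 6.4 to 6.6, in that order. Median differences over the genes of these lists were -0.14, -0.33, -0.41, 0.03 and -0.07, in the same order. The B cell list thus had a median of 0.03 although its mean was lower. The lowest value of any probe set was 1.90, so no marker could be at 0, and detection calls were not used. The part of these markers in the results below was not tested, and in bulk samples fewer cells of a type and less RNA per cell cannot be told apart.

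Expressed Zfp genes were lower in the caffeine-plus cells more often than higher. Of the 173 members 85 fell and 37 rose, and 51 missed the threshold. They had a median difference of -0.25 and quartiles of -0.51 and 0.14. The background was 21.7% lower and 16.2% higher over all genes. Over the 8527 genes that also had a mean of 7 or more it was 34.2% lower and 32.8% higher, with a median of -0.03. The members' shares were 49.1% lower and 21.4% higher. By at least 2-fold, 19 members fell and 5 rose, where the background was 3.15% and 2.63% over all genes and 5.49% and 5.76% over genes with a mean of 7 or more. The groups of arrays did not overlap for 86 members in the lower direction and 40 in the higher, against 26.3% and 19.5% of all genes and 37.8% and 36.4% of the genes with a mean of 7 or more.

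**Figure D1:**
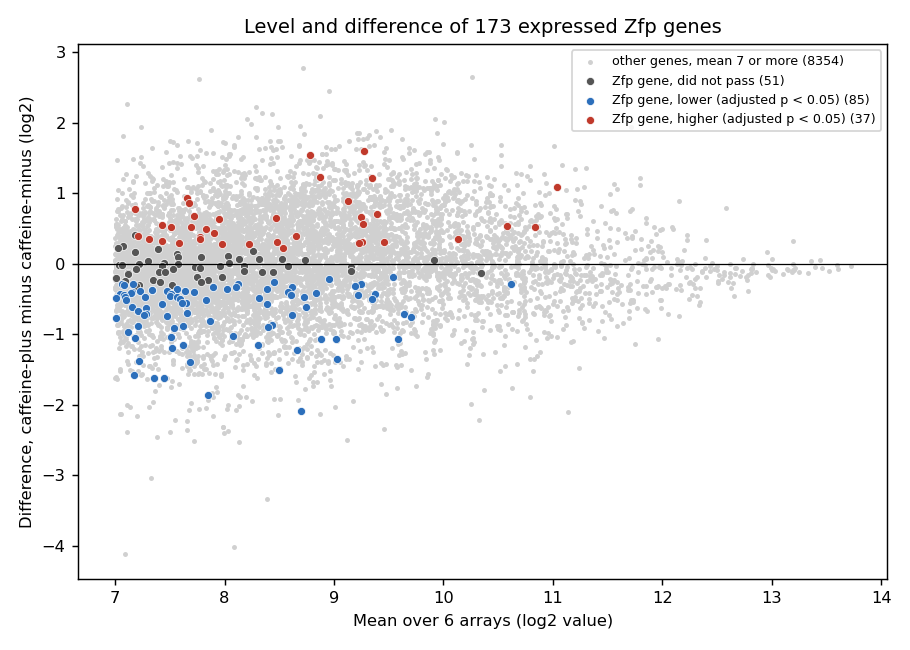
Difference between the groups (caffeine-plus minus caffeine-minus, log2) against the mean log2 value over 6 arrays, 1 point per gene. Of the 173 Zfp genes, 85 that fell are blue, 37 that rose red and 51 that did not pass dark grey, and the other genes with a mean of 7 or more are light grey. More blue than red points are seen at the left, near the level of 7.

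The level that chose the members bears on these counts. For 28 members the caffeine-plus mean was below 7, and 26 of them fell. For 4 the caffeine-minus mean was below 7, and 1 of them rose. Such genes entered through the group in which they were higher, so their direction was fixed in part by the choice. Among the 141 members with both group means at 7 or more, 59 fell and 36 rose (41.8% and 25.5%), with a median of -0.13. Among all 7754 genes with both means at 7 or more, 32.0% fell and 33.4% rose. Just inside the level lay Zfp93 (mean difference -0.49), Zfp30 (-0.20) and Zfp846 (-0.77), and just outside it Zfp526 (-0.09), Zfp946 (0.03) and Zfp738 (-0.45).

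Of the 142 Zfp genes below the level 49 fell and 10 rose (34.5% and 7.04%), with a median of -0.12. Of all 11410 genes below the level 12.3% fell and 3.82% rose, with a median of -0.04. The lowest difference was that of Zfp229 (-2.35 ± 0.19), and the highest that of Zfp566 (1.32 ± 0.10). Dim probe sets may compress differences, which was not tested here. The lowest difference of a member was -2.08. Of the genes that the rule left out, Zfp389 fell by 3.35 on the log2 scale, with values of 4.94, 4.77 and 4.51 in the caffeine-plus arrays and 8.25, 8.12 and 7.92 in the caffeine-minus arrays, and its mean of 6.42 would have kept it out in any case. Zfp36, which encodes tristetraprolin, a protein that speeds decay of mRNAs with AU-rich elements, differed by -0.17 ± 0.07 (limma adjusted p = 0.055).

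Families related by structure were set beside the members. Zscan and Zkscan genes encode C2H2 proteins with a SCAN domain, a dimerization fold, and of 11 with a mean of 7 or more 8 fell and 1 rose, with a median of -0.50. Zbtb genes encode C2H2 proteins with a BTB domain, and of 25 at that level 11 fell and 8 rose, with a median of -0.07. As shares these are 72.7% lower and 9.09% higher for Zscan and Zkscan and 44% and 32% for Zbtb, beside 34.2% and 32.8% of all genes at that level. Neither family was tested against the Zfp members.

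**Figure D2:**
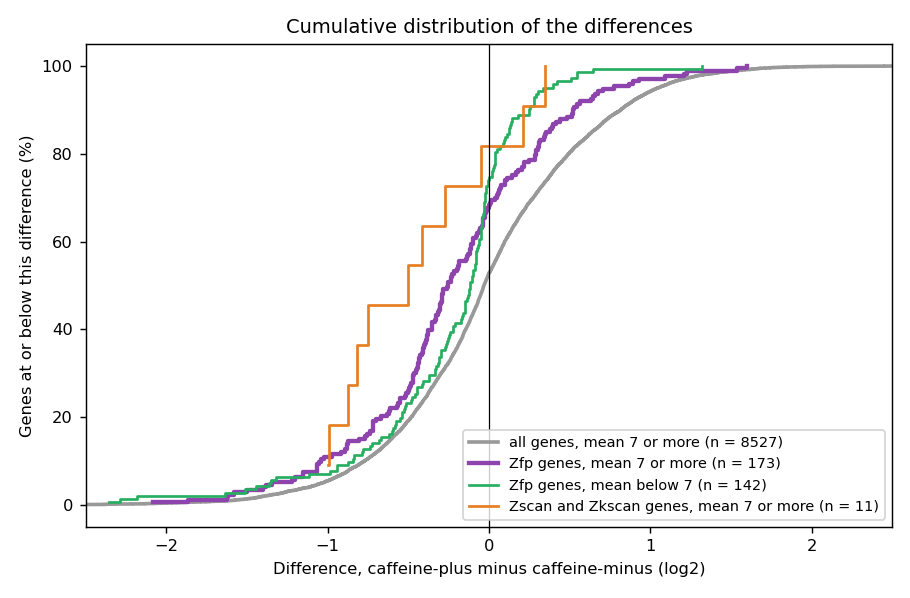
Cumulative share of genes (percent) against the difference between the groups (log2) for Zfp genes with a mean of 7 or more (n = 173), Zfp genes below it (n = 142), Zscan and Zkscan genes (n = 11) and all genes with a mean of 7 or more (n = 8527), a few of which lie beyond the ends of the axis. The Zfp curves lie to the left of the curve of all genes, with medians of -0.25 and -0.12 against -0.03.

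The largest falls were those of Zfp599, Zfp617, Zfp799, Zfp953, Zfp867, Zfp329, Zfp457, Zfp182, Zfp825 and Zfp950, between 4.23-fold and 2.33-fold lower in the caffeine-plus cells. Zfp599 had values of 7.90, 7.48 and 7.61 in the caffeine-plus arrays and 9.68, 9.89 and 9.65 in the caffeine-minus arrays. Its difference was -2.08 ± 0.10 (limma adjusted p = 4e-10), and the groups lie far apart. Zfp617 read 7.09, 6.87 and 6.78 with caffeine and 8.51, 9.24 and 8.59 without, with caffeine-minus array 2 the highest, and fell by 1.86 on the log2 scale (limma adjusted p = 6.9e-08). Zfp799 read 6.58, 6.76 and 6.31 against 8.34, 8.24 and 7.93, a 3.08-fold difference. All of these caffeine-plus values lay below every caffeine-minus value of the gene, as the choice of these genes required.

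Zfp867 (2.99-fold lower), Zfp182 (2.61-fold) and Zfp953 (3.06-fold) had caffeine-plus means of 6.38, 6.53 and 6.64, and with Zfp617, Zfp799 and Zfp457 they are the 6 of the 10 whose caffeine-plus mean was below 7. Zfp329 (2.83-fold lower), Zfp825 (2.54-fold) and Zfp950 (2.33-fold) stayed above 7 in every array. A second, dimmer probe set of Zfp825 also fell, by 0.64 on the log2 scale. The genomic spans of Zfp599, Zfp953, Zfp867, Zfp329 and Zfp950 overlap those of Zfp809, Zfp595, Jmjd4, Zscan18 and Grk5, so the gene behind the signal of those probe sets is uncertain.

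The largest rises were smaller, between 3.02-fold and 1.63-fold, and were those of Zfp326, Zfp638, Zfp148, Zfp654, Zfp330, Zfp180, Zfp367, Zfp619, Zfp568 and Zfp410. Zfp654 read 9.95, 10.01 and 9.88 with caffeine and 8.66, 8.91 and 8.65 without (difference 1.21 ± 0.08, limma adjusted p = 7.2e-09). Zfp330, whose product is a nucleolar zinc finger protein, read 11.61, 11.52 and 11.62 against 10.53, 10.51 and 10.43 (1.09 ± 0.05, limma adjusted p = 3.6e-10), the smallest standard error of the 10. Zfp180 was 1.90-fold, Zfp367 1.86-fold and Zfp619 1.82-fold higher. The groups did not overlap for any of the 10, as the choice of these genes required.

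**Figure D3:**
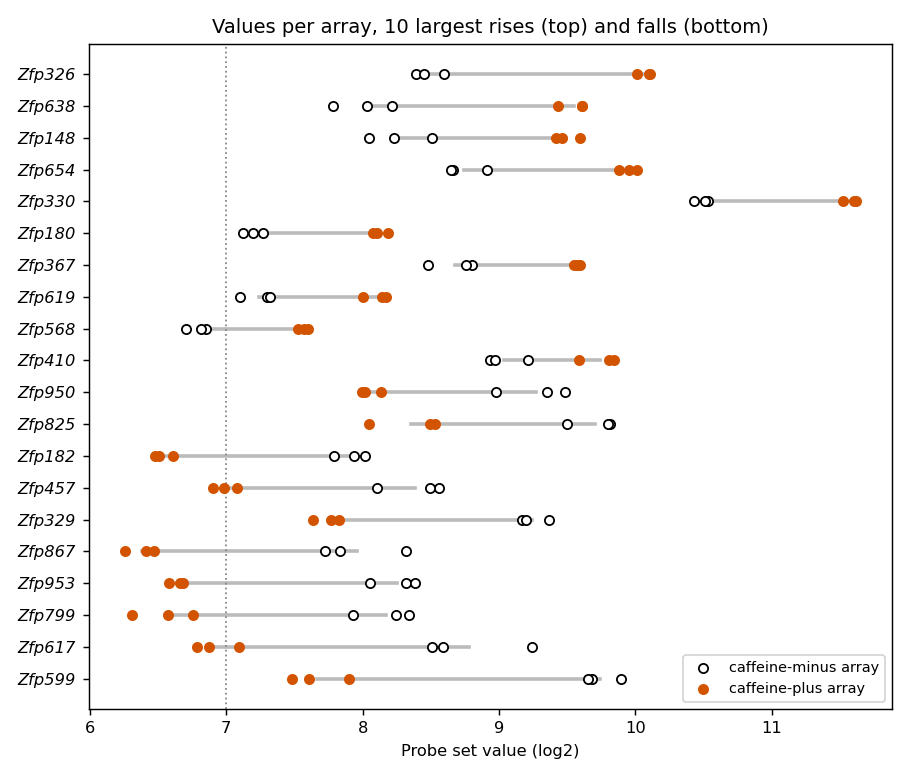
Probe set values (log2) of the 10 members with the largest rise (top) and the 10 with the largest fall (bottom), 1 point per array, with a grey line between the group means and a dotted line at the level of 7. Caffeine-plus (filled) and caffeine-minus (open) arrays do not overlap for any of the 20 genes, a condition of their choice. Zfp599 has the widest gap (-2.08).

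The members with roles in RNA and the ribosome, listed by known function, were mostly higher. All 8 genes of the list were members, and 6 rose and 2 fell, with a median of 0.52. As shares these are 75% higher and 25% lower, against 21.4% higher among all members. Of all genes at or above the level that chose the members, 32.8% rose and 34.2% fell. In the range of the highest member means, where Zfp326, Zfp638, Zfp622, Zfp207 and Zfp830 lie, 42.8% of all genes rose. With 8 genes the shares are coarse, and the role lists were made with earlier results of these data known. The direction of this list is therefore a description only. Zfp326, a subunit of the DBIRD complex that couples elongation by RNA polymerase II to splicing, read 10.10, 10.10 and 10.02 with caffeine and 8.59, 8.39 and 8.45 without, a 3.02-fold rise (1.60 ± 0.07, limma adjusted p = 2.2e-10). Zfp638, a nuclear protein that binds RNA and cytidine-rich DNA, read 9.61, 9.61 and 9.43 against 8.04, 8.22 and 7.78, a 2.91-fold rise (1.54 ± 0.10, limma adjusted p = 6.2e-09). In both genes each caffeine-plus value was more than 1 log2 unit above the highest caffeine-minus value.

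Zfp622, a maturation factor of the large ribosomal subunit, was 1.48-fold higher, Zfp207, a spindle assembly factor that binds Bub3, 1.44-fold, and Zfp598, the ubiquitin ligase that senses collided ribosomes, 1.43-fold. Zfp346, which binds double-stranded RNA, was 1.24-fold higher, a call lost without caffeine-plus array 2 (limma adjusted p = 0.054, range 0.0033 to 0.054 over 16 alternatives). Zfp830, a protein found with spliceosomes, read 9.40, 9.26 and 9.31 against 10.12, 10.22 and 9.91 and was 1.69-fold lower. Its span overlaps that of Cct6b. Zfp106, an RNA-binding protein needed by motor neurons, was 1.19-fold lower. It lost its call without caffeine-plus array 2 (limma adjusted p = 0.085) or 3 (0.11), and likewise when caffeine-minus array 1 was omitted (0.12), with a range of 0.0042 to 0.12.

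Of 29 listed sequence-specific factors and chromatin partners without a KRAB box 19 were members, 8 lay below the level and Zfp91 and Zfp143 had no probe set of their own. Of the 19, 7 rose, 6 fell and 6 did not pass (36.8% higher and 31.6% lower), with a median of 0.10. These shares are near those of all genes with a mean of 7 or more, at 32.8% and 34.2%. Zfp148, which binds GC-rich promoters, read 9.41, 9.59 and 9.46 with caffeine and 8.23, 8.51 and 8.05 without, a 2.34-fold rise. Zfp410, known for its control of the nucleosome remodeler gene Chd4, was 1.63-fold higher, with 9.81, 9.84 and 9.58 against 8.94, 9.21 and 8.97. Zfp131, a BTB domain factor, was 1.55-fold higher, Zfp609 1.40-fold and Zfp592 1.30-fold.

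Zfp24 was 1.40-fold lower, Zfp318 1.39-fold, Zfp516, an activator in brown fat, 1.38-fold and Zfp687, which shares partners with Zfp592, 1.28-fold. Calls of 4 further genes were lost when single arrays were left out, and for Zfp219 and Zfp644 also under another scaling. Zfp608, the paralog of Zfp609, was 1.22-fold higher and lost its call without caffeine-plus array 1 (limma adjusted p = 0.078) or 2 (0.059) or caffeine-minus array 2 (0.070), with a range of 0.0036 to 0.078. Zfp292 (1.22-fold higher) lost it without caffeine-plus array 1 (0.070), 2 (0.085) or 3 (0.12) or caffeine-minus array 2 (0.052) or 3 (0.15), with a range of 0.0092 to 0.15.

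Zfp219 (1.22-fold lower) lost its call without caffeine-plus array 3 (limma adjusted p = 0.12), with caffeine-minus array 1 omitted (0.068), after quantile normalization (0.070) and with arrays centred on their medians (0.081), with a range of 0.012 to 0.12. Zfp644, a partner of the G9a and GLP methyltransferases, was 1.14-fold lower and lost its call without caffeine-plus array 1 (0.13), 2 (0.11) or 3 (0.095), without caffeine-minus array 1 (0.12) or 2 (0.13) and with arrays centred on their medians (0.24), with a range of 0.00048 to 0.24. The factors that did not pass were Zfp335 (0.14 ± 0.08), Zfp740 (0.11 ± 0.09), Zfp692 (0.10 ± 0.10), Zfp281, a regulator of pluripotency (0.05 ± 0.08), the SUMO ligase gene Zfp451 (0.05 ± 0.07) and Zfp384 (-0.04 ± 0.10). The sign of Zfp281 and Zfp451 turned after quantile normalization and that of Zfp384 with arrays centred on their medians.

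Of 7 listed KRAB genes with a described function 6 were members, and Zfp57 lay below the level. Of the 6, 3 rose, 1 fell and Zfp90 and Zfp30 did not pass (50% higher and 16.7% lower), with a median of 0.30. Of all genes with a mean of 7 or more 32.8% rose and 34.2% fell, and with 6 genes the shares are coarse. Zfp568, which silences a placental promoter of Igf2, read 7.52, 7.57 and 7.60 with caffeine and 6.85, 6.71 and 6.81 without, a 1.71-fold rise, and its caffeine-minus mean was below 7. Zfp746, a repressor known from studies of parkin, was 1.43-fold higher. Zfp809, which silences retroviral DNA in embryonic cells, read 10.30, 10.34 and 10.29 against 9.99, 9.95 and 9.92, a 1.28-fold rise with little spread. Zfp445, which protects imprints in the embryo, read 9.42, 9.23 and 9.19 against 9.98, 10.06 and 9.95 and was 1.64-fold lower, and its span overlaps that of Zkscan7.

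Zfp90 differed by 0.24 ± 0.09 (limma adjusted p = 0.052) and passed in 10 of 16 alternatives, among them without caffeine-plus array 3 (0.034), after quantile normalization (0.010) and with arrays centred on their medians (0.021), with a range of 0.010 to 0.19. Zfp30, a gene linked to neutrophil recruitment in mouse airways, differed by -0.20 ± 0.12 (limma adjusted p = 0.23), and passed without caffeine-minus array 1 (0.032), with a range of 0.032 to 0.52.

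**Figure D4:**
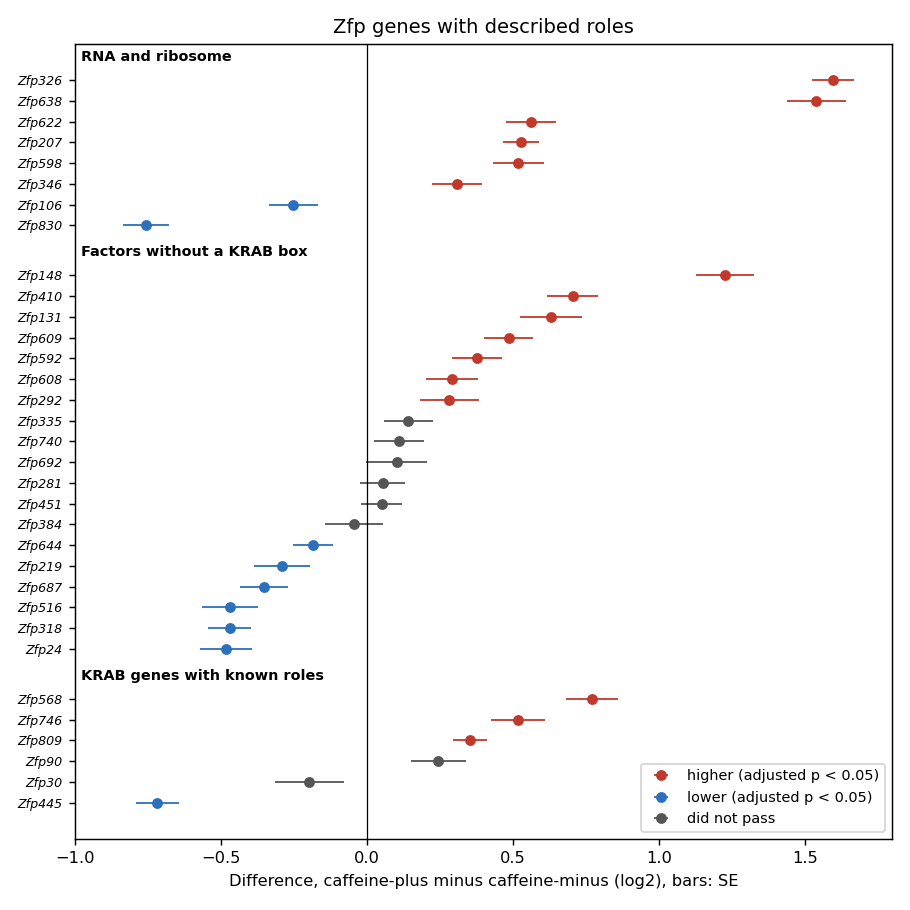
Difference between the groups (log2, points) with its moderated standard error (bars) for the members with a described role. They are grouped as RNA and ribosome genes, factors without a KRAB box and KRAB genes. Red points rose, blue points fell and grey points did not pass. In the first group 6 of 8 rose, led by Zfp326 (1.60). The groups were listed with earlier results of these data known.

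The partners through which KRAB proteins silence chromatin were counted next. Of 33 listed corepressor and heterochromatin genes 30 were measured, and 11 rose and 10 fell, with 9 that missed the threshold and a median of -0.02. These shares, 36.7% higher and 33.3% lower, lie near the 32.8% and 34.2% of all genes with a mean of 7 or more. Trim28, which binds the KRAB box, was higher by 0.48 ± 0.07 and Setdb1, its methyltransferase partner, lower by 0.65, a fall from a mean of 9.45 to 8.80. These 2 were chosen for naming with their values known. Of the 6 with the smallest p, Atf7ip, the cofactor of Setdb1, was 1.72-fold, Mbd2 1.63-fold, Gatad2b 1.53-fold and Smarcad1 2.04-fold higher. Morc2a, the ATPase that works with the HUSH silencing complex, was 2.30-fold lower and Chd4 1.43-fold lower.

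Position in the genome was then set against the differences. In the RefSeq gene order 78 members had another member nearby, with at most 3 protein-coding genes between them, and 95 had none. Of the 78, 44 fell and 11 rose (56.4% and 14.1%), with a median of -0.32. Of the 95, 41 fell and 26 rose (43.2% and 27.4%), with a median of -0.07, nearer to the 34.2%, 32.8% and -0.03 of all genes with a mean of 7 or more. This grouping was made after the values were seen and was not tested. Neighbours formed 26 runs, 13 of them with 3 or more members. In 4 of those 13 every member fell, and in 4 some members fell and others rose. Over all members 49.1% fell and 21.4% rose, and the number of such runs was not tested against these shares. In the runs that fell as a whole, Zfp457, Zfp953 and Zfp58 had caffeine-plus means of 6.99, 6.64 and 6.90. They passed the level only through the caffeine-minus group.

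The run of Zfp458, Zfp457, Zfp595, Zfp953 and Zfp456, whose promoters are printed above, fell as a whole. RefSeq lists Zfp457, Zfp458, Zfp595 and Zfp456 also under Rslcan names, the candidates for regulator of sex limitation, a trait of liver gene expression. Zfp457 read 6.90, 7.08 and 6.98 with caffeine and 8.56, 8.50 and 8.10 without (-1.40 ± 0.11, limma adjusted p = 5.9e-08). Zfp953 read 6.58, 6.66 and 6.68 against 8.32, 8.39 and 8.06, the widest gap of the run (-1.61 ± 0.10).

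Zfp458 read 7.09, 6.92 and 7.12 against 8.11, 8.31 and 8.17 (-1.15 ± 0.09). Zfp595 read 8.63, 8.53 and 8.30 against 9.69, 9.62 and 9.36 (-1.07 ± 0.10). Zfp456 read 7.43, 7.32 and 7.16 against 8.02, 8.16 and 7.84 and had the smallest fall of the run (-0.70 ± 0.10, limma adjusted p = 3.8e-05). A part of the promoter words in these falls was not tested. No gene's arrays overlapped between groups. Whether probe sets of these neighbours share signal was not tested. A further run, Zfp58, Zfp87 and Zfp748, fell by 0.72, 0.44 and 0.40 on the log2 scale.

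Other neighbours differed in direction. Zfp942 read 8.08, 8.36 and 7.92 with caffeine and 7.87, 7.81 and 7.37 without, a rise of 0.44 ± 0.13 (limma adjusted p = 0.014). Zfp943, which starts head to head with it, read 8.07, 8.15 and 7.96 against 7.49, 7.66 and 6.999, a rise of 0.68 ± 0.13 (limma adjusted p = 0.00063). Zfp944, the neighbour whose promoter is 81.5% identical to that of Zfp942, read 7.13, 7.40 and 7.33 against 7.78, 7.75 and 7.47 and fell by 0.38 on the log2 scale (limma adjusted p = 0.0084). This pair was picked for its opposite signs after its values were seen, so the signs are not a result about the promoters. A part of the promoters was not tested. The call of Zfp942 was lost without caffeine-plus array 2 (limma adjusted p = 0.091) or caffeine-minus array 3 (0.055), with a range of 0.00067 to 0.091. That of Zfp944 was lost without caffeine-plus array 1 (0.062), with a range of 0.0009 to 0.062.

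Zfp809 rose and its neighbours Zfp599 and Zfp810 fell, at 0.35 ± 0.06, -2.08 ± 0.10 and -0.55 ± 0.13. Zfp871 and Zfp799 likewise lie near each other, and Zfp871, with values of 11.07, 11.11 and 11.11 against 10.63, 10.64 and 10.45, rose 1.44-fold while Zfp799 fell 3.08-fold. Within the run of 10 that starts with Zfp54, Zfp51, Zfp53 and Zfp52, 5 members fell and 2 rose. This is near the 49.1% lower and 21.4% higher of all members. Zfp52 was among the 5 members with the brightest probe sets and differed by -0.14 ± 0.06 (limma adjusted p = 0.11). It passed after quantile normalization (0.0048) and without caffeine-minus array 3 (0.015), with a range of 0.0048 to 0.46. Zfp948 of the same run, with values of 10.50, 10.47 and 10.48 against 10.79, 10.86 and 10.64, was 1.22-fold lower.

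**Figure D5:**
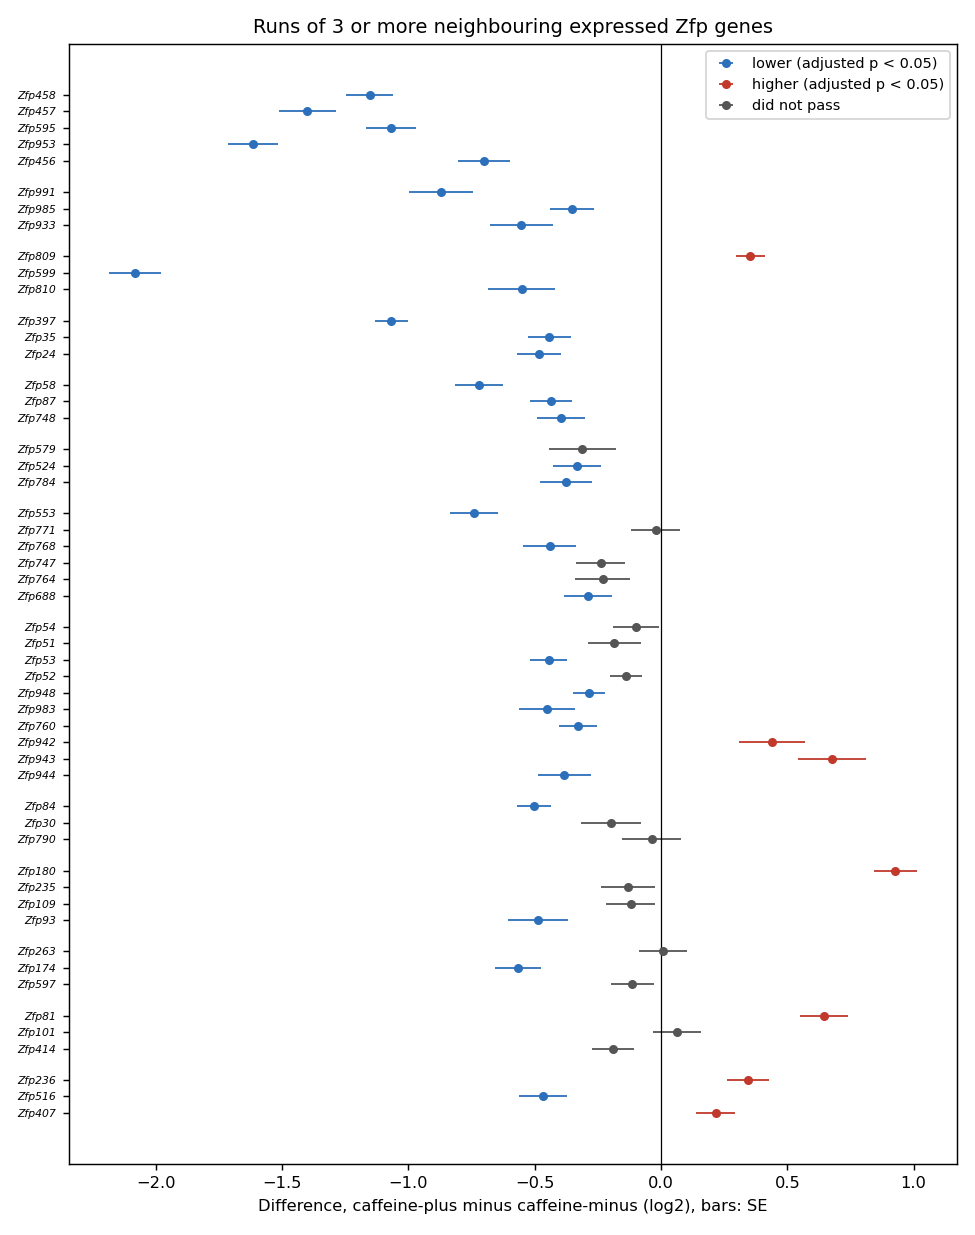
Difference between the groups (log2, points) with its moderated standard error (bars) for members in the 13 runs of 3 or more neighbours. There is 1 row per gene in gene order, with runs sorted by their median. Blue fell, red rose, grey did not pass. The run of Zfp458 to Zfp456 at the top lies wholly below 0, while Zfp942 and Zfp943 (0.44 and 0.68) are the 2 members of their run that rose.

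The promoter windows of the members were searched for short words on both strands, as a description. RefSeq had 175 windows for 143 members. The letters ACTACANTT, where N is any base, were in 12.0% of the members' windows, in 1.57% of all 32851 windows and in 2.80% of the 8636 windows of genes with a mean of 7 or more. Of the 21 members that held them 14 fell, 1 rose and 6 did not pass, with a median of -0.49. The member that rose was Zfp180, and the members that fell include Zfp626 (-0.72), Zfp84 (-0.50) and Zfp60 (-0.29) besides the 4 of the printed run. Zfp457, Zfp953, Zfp58, Zfp605, Zfp661 and Zfp93 had caffeine-plus means below 7, so they passed the level only through the group in which they were higher. With both group means at 7 or more, 8 of 14 members with the letters fell and 1 rose, with a median of -0.26, and 38 of 102 without them fell and 27 rose, with a median of -0.11. Of the 122 members with a window without the letters, 55 fell and 27 rose, with a median of -0.21. Among 208 other genes with a mean of 7 or more that held the letters, 78 fell and 65 rose, with a median of -0.04. The word was searched for because it lay in the capitals printed above, so neither its share nor these counts are independent of that run.

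The ETS word CCGGAAG was in 21.1% of the members' windows and 19.8% of those of genes with a mean of 7 or more. The YY1 word AAGATGGC was in 6.29% and 5.0%. The cAMP response element TGACGTCA was in 3.43% and 3.28%, and its 6 members were Zfp266, Zfp335, Zfp367, Zfp457, Zfp595 and Zfp953. Of these 1 rose and 3 fell, where 21.4% of all members rose and 49.1% fell. The median window of a member had 56.0% G and C and 16 CG steps, against 60.7% and 21 for genes with a mean of 7 or more. Matches of different words may overlap, and a match does not show that a factor was bound.

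Genomic span, which reflects intron length in large part, was the last property compared. Across the 173 members the difference correlated with log10 span at Pearson r = 0.25 and Spearman rho = 0.21, against 0.32 and 0.38 across 8511 genes with a mean of 7 or more and a known span. These describe genes measured on the same arrays. Members were divided into 4 classes by span. In the class with the shortest spans, up to 11931 bases, 22 of 44 fell and 4 rose, and 51.1% of all genes with a mean of 7 or more and such a span fell. In the next class 26 of 43 members fell (60.5%) against 39.3%, and in the one after that 19 of 43 (44.2%) against 33.0%. In the class with the longest spans, from 29555 bases, 18 of 43 members fell (41.9%) and 19 rose (44.2%), against 19.4% and 50.4%. The share that fell was thus near that of other genes for short spans and above it for the longer ones. By level, 25 of the 44 members nearest the level of 7 fell and 3 rose (56.8% and 6.82%, against 33.6% and 15.1% of all genes in that range of means). Of the 43 with the highest means 22 fell and 16 rose (51.2% and 37.2%, against 32.9% and 42.8%).

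Probe sets did not always match within a gene. For 10 members the array had a second probe set of their own. In no case did both pass with opposite signs. Zfp319 fell by 1.15 on its brighter probe set and gave -0.07 ± 0.07 on the other. Zfp141, at 0.66 in the fit of 1 probe set per gene, gave 0.21 ± 0.13 on the other. The dimmer probe sets of Zfp407 (0.02 ± 0.07), Zfp706 (0.04 ± 0.10), Zfp664 (-0.09 ± 0.10) and Zfp985 (-0.03 ± 0.12) likewise did not pass. Zfp672 fell on both, by 1.02 and 0.65. The spans of 27 members overlap another protein-coding gene. Among the remaining 146 members 68 fell and 32 rose, with a median of -0.23.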

How the data were processed

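The data are 1 deposited table with 34760 probe sets on 6 Affymetrix Mouse Gene 1.0 ST arrays, 3 per group. Total RNA (300 ng) was made into biotinylated cDNA, per the labels' protocols. The deposited values were read as log2 intensities already scaled across arrays by the authors, since they run from 1.90 to 13.98 with array medians of 6.49 to 6.60, but no header states the unit. The method that made them was not given in the sources used here. Precision is limited by the number of arrays.

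Gene names came from GEO's platform annotation (21640 probe sets with 1 symbol, 1321 with several, 11799 not listed), and the brightest by mean represented each gene. All 19937 genes were fitted with limma 3.58.1 in R 4.3.3 (lmFit, eBayes with trend, two-sided, Benjamini-Hochberg). The fit was tested on simulated data in which 200 genes were changed. It recovered 42% of changes of 0.5 log2 units and 92% of changes of 1, and 2.19% of its calls were false. In that setting, changes of 0.5 were often missed. In the real data 3229 genes were called higher and 4325 lower, far more than 200, so these rates may not apply there. RefSeq tables of GRCm38.p6 gave gene order, spans and promoters, aligned with Biopython 1.88. The members and lists were chosen with earlier results of these data known. Named genes are the 10 largest rises and falls with groups that do not overlap, the 5 brightest members, 3 genes on each side of the level, members of the role lists, 6 corepressor genes with the smallest p, members whose probe sets disagree past the threshold, Zfp36 and Zfp389. Genes of the described runs, Zfp229, Zfp566, Zfp2, Zfp759 and those named under promoter words were added once values had been seen. So were Zfp319, Zfp672, Zfp141, Zfp407, Zfp706, Zfp664 and Zfp985. Protein sequences were not used here, so KRAB boxes and fingers were not counted. Alternatives varied the scaling, filters, probe sets, variance model, replicate block, arrays left out and membership.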

Additional observations from a re-analysis of the deposited data

How the results depend on the processing

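Over 16 alternative fits the number of members that fell ran from 77 to 92 and the number that rose from 31 to 40, all within 1.5 times the reported counts, as were those of all genes and of the corepressor list. Leaving out 1 array at a time gave 80 to 92 members lower, 31 to 38 higher and a median of -0.27 to -0.21. Membership mattered more. With a mean of 8 or more, 71 members gave 35 lower and 20 higher with a median of -0.14. The shares of all genes at that mean are not given here. With both group means at 7 or more 59 were lower and the median was -0.13. Without members that have a neighbouring member (chosen after seeing the data) 41 were lower and 26 higher and the median was -0.073. The choices also added after seeing the data, members by their caffeine-minus mean and members that overlap no protein-coding gene, gave 98 and 68 lower. The other memberships gave 37 to 42 higher and 85 to 105 lower.

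With the replicate number as a block 90 members were lower and 39 higher. Deviations of same-numbered arrays correlated at -0.03, 0.19 and 0.29, so the numbers were not taken to pair the arrays. Centring arrays on their medians shifted the median of all genes by 0.06, and then 78 members fell and 40 rose. Among 76 named genes 64 passed, and 56 of these kept their call and direction in every fit that held them, which was 14 fits for Zfp389, 15 for Zfp738 and 16 for the others. No gene that passed changed sign. Of genes that did not pass, Zfp281 gave -0.018 and Zfp451 -0.034 after quantile normalization, Zfp384 gave 0.015 with arrays centred, and 0.0016 with array weights, and with 1 array left out Zfp384 ran from -0.143 to 0.0926, Zfp451 from -0.00832 to 0.108, Zfp692 from -0.00603 to 0.217 and Zfp946 from -0.0347 to 0.111. Zfp36 passed in 7 of the 16 fits, with limma adjusted p between 0.0014 and 0.31. Causes were not tested. Without scanner files, signal over background is not known here.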
